A study of Mus musculus with 2 samples.

Results

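T cells and natural killer (NK) cells were examined in a pair of single-cell RNA libraries from mouse kidney. A barcode was kept as a cell with 200 or more genes, 500 to 150000 unique molecular identifiers (UMIs, each standing for 1 captured RNA molecule) and no more than 55% of them mitochondrial. Members were the kept cells with at least 2 UMIs summed over 7 gate genes, Cd3d, Cd3e, Cd3g, Trac, Ncr1, Klrb1c and Klre1, which also had to make up at least 0.05% of the UMIs of the cell. Barcodes with 0.5% or more of UMIs from C1qa, C1qb and C1qc, with 2% or more from S100a8 and S100a9, or with any Cd79a UMI were left out. Of the 25702 kept cells, 168 were members: 138 T cells, with at least 1 UMI of a Cd3 gene or Trac, and 30 NK cells, with none. The gate used these counts, so the levels of its genes are given as descriptions. Both libraries came from C57BL/6J wildtype male mice aged 19 weeks. The control library was made from the contralateral, uninjured kidney and the ischemic library from a kidney clamped on 1 side for 27 minutes and reperfused for 24 hours, and the design text speaks of 1 mouse, in the singular, while the protocol speaks of mice. Blood was flushed out with cold saline, the tissue was digested with enzymes and red cells were lysed, and cells that did not come free in the digest were not counted. With 1 library per condition there was no replicate. No test between conditions was possible, and each value is given for both libraries with an exact 95% interval that covers counting error only; beside a count of 0 the limit printed is that of 3 counts.

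T cells recognise antigen through a receptor of alpha and beta or of gamma and delta chains that signals through the CD3 chains, and they carry the coreceptor CD4 (helper and regulatory cells, antigen on MHC class II) or CD8 (cytotoxic cells, antigen on MHC class I). NK cells lack that receptor; they read activating and inhibitory receptors such as NKp46 (Ncr1), NK1.1 (Klrb1c) and the Ly49 family (Klra genes) and kill through perforin and granzymes. Kidney holds resident cells of both kinds, and both are studied in ischemic injury as sources of interferon-gamma, interleukin-17A and chemokines. The study used these libraries to look for the interleukin-1 receptor, for Il1b and for the inhibitor Il1rn in myeloid cells of the kidney.

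The control library held 15110 barcodes and the ischemic library 15257, with 142686238 and 142959737 UMIs; 12586 and 13116 barcodes were kept. The libraries shared 88 barcodes, 58 of them among kept cells, no member barcode was a member in both, and 2 member barcodes were also kept cells of the other library. T cells numbered 60 in the control and 78 in the ischemic library, with 228467 and 330483 UMIs in all and a median of 3451 and 3638 UMIs per cell (range 1335 to 17069 and 1391 to 16681). NK cells numbered 20 and 10, with 58367 and 35673 UMIs in all and a median of 2887 and 3217 UMIs per cell. The NK comparison therefore rested on far fewer molecules than the T cell comparison. Levels are counts per 1000000 UMIs (CPM) of the summed cells of a type in a library, and a ratio is ischemic over control CPM.

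The cells were checked on genes the gate had not used. In T cells, Trbc2 and Trbc1, the beta chain constant genes, stood at 578 and 820.0 CPM and at 442 and 345 CPM in the control and ischemic libraries; Lck, a kinase of the receptor complex, stood at 254 and 233 CPM, and Themis, needed for T cell development, at 346 and 378 CPM. In all kept cells outside the gate Trbc2 stood at 0.177 and 0.218 CPM. In NK cells, Gzma (granzyme A) stood at 6373 and 5691 CPM, Nkg7 (a granule membrane protein) at 1628 and 1289 CPM, and Tyrobp and Fcer1g, the adaptor chains of NK receptors, at 1833 and 1569.8 CPM and 1319 and 1261 CPM. Cd5 and Cd6, surface proteins of T cells, had 0 UMIs in the NK cells of both libraries, where 3 UMIs, the limit that a count of 0 allows, equal 51.4 and 84.1 CPM. Of the NK cells, 8 of 20 and 5 of 10 had a UMI of Trbc1 or Trbc2, against 3.88% and 4.76% of thick ascending limb cells with a UMI of Trac, Trbc1 or Trbc2; at 1000 UMIs per cell the shares were 2 of 20 and 5 of 10 against 0.755% and 0%. Thick ascending limb cells, tubule cells marked by Slc12a1 (799 and 168 cells, median 14251 and 19632 UMIs), should lack lymphocyte genes and give the background share. Of them, 0 of 799 and 0 of 168 had a UMI of Trdc, Foxp3, Gzmb, Ifng, Il17a, Ccl1, Klra4 or Klra8, which allows up to 0.375% and 1.79%; the share was 0.125% and 0% for Gzma and Prf1, 0% and 0.595% for Xcl1, Il18r1 and Ccr7, and 0.125% and 0.595% for Nkg7, Il7r, Cxcr6 and Mki67. The share was 0.125% and 0% for Cd163l1 and 0.125% and 0.595% for Il1r2. Where given, other shares stand beside their genes.

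Macrophage, neutrophil and dendritic cell markers stood lower in the members than in the cells outside the gate. Of 8 macrophage markers, 5 had no UMI in any T cell and all 8 had none in any NK cell; their summed level in T cells was 13.1 and 21.2 CPM, against 174 and 548 CPM in the cells outside the gate. C1qa, whose level the gate limited, was the most abundant of them. The 5 neutrophil markers summed to 13.1 and 18.2 CPM in T cells, with Retnlg and Cxcr2 at 0 and S100a9 most abundant, and to 0 in NK cells. Of the 6 dendritic cell markers Flt3, Xcr1, Clec9a and Cd209a were at 0 in T cells, and the list summed to 39.4 and 45.4 CPM, most of it Cd74. Of the 6 B and plasma cell markers Cd79a (fixed at 0 by the gate), Cd79b and Jchain were at 0 in T cells; the list summed to 91.9 and 54.5 CPM, nearly all Ighm, and to 18.4 and 11.5 CPM outside the gate, so that T cells stood above the rest here. Ighm was at 772 and 910.3 CPM in B cells. Mast cell and platelet markers had no UMI in T cells. Red cell markers summed to 0 and 6.05 CPM there, fibroblast markers to 4.38 and 9.08 CPM and endothelial markers, led by Pecam1, to 52.5 and 194 CPM. In NK cells, red cell and fibroblast markers were at 0, endothelial markers summed to 34.3 and 28 CPM, dendritic cell markers to 0 and 56.1 CPM and platelet markers to 17.1 and 0 CPM. Innate lymphoid cells lack Cd3 proteins and could enter the NK gate. Marker lists were read for their groups 2 and 3 and not for group 1, whose cells were not told apart from NK cells. Of their group 2 markers, Il1rl1, Il5, Il13, Il17rb and Areg were at 0 in NK cells, and of the group 3 markers Il17a, Il22 and Il23r were at 0; Kit had 2 and 1 UMIs. The group 2 and group 3 lists summed to 103 and 308 CPM and to 51.4 and 28 CPM in NK cells, and in T cells, which share several of these genes, to 355 and 508 CPM and 21.9 and 312 CPM; outside the gate they summed to 144 and 133 CPM and to 22.0 and 14.4 CPM. The B and plasma cell list summed to 34.3 and 56.1 CPM in NK cells, all of it Ighm, and mast cell markers to 0 CPM.

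Tubule RNA was present in every member. All 138 T cells and all 30 NK cells had a UMI of at least 1 of 8 proximal tubule markers, as had 100.0% and 99.4% of thick ascending limb cells. In T cells these markers, led by Kap, summed to 10500.4 CPM (control) and 5958 CPM (ischemia), and in cells outside the gate to 23023 and 16114 CPM. In NK cells they summed to 11102 and 8494 CPM. The thick ascending limb list summed to 337 and 130.1 CPM in T cells and to 291 and 168 CPM in NK cells. The 5 injured tubule markers moved the other way. Led by Spp1, they summed to 1134 and 5982 CPM in T cells, to 1079 and 10456 CPM in NK cells and to 3724 and 29846 CPM outside the gate. Spp1, the secreted protein osteopontin, had a ratio of 5.71 (4.95 to 6.62) in T cells and 9.96 (7.49 to 13.5) in NK cells; Havcr1 (KIM-1), absent from healthy tubules, had 2 and 34 UMIs in T cells, and Lcn2 (NGAL) 6 and 57. These genes thus differed between the libraries inside lymphocytes in the direction they did in the other cells. Their part in the results that follow was not tested gene by gene. In 1 control T cell proximal tubule markers made up 5% or more of UMIs, and the T cell counts without it are given beside those with it.

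**Figure D1:**
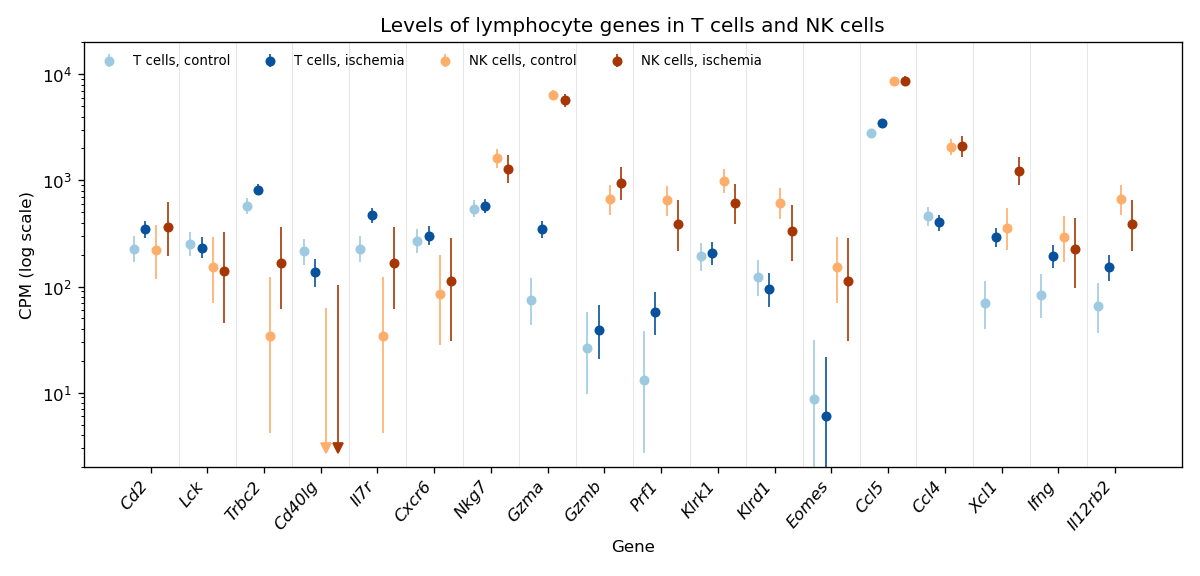
CPM (log axis) of 18 genes in the T cells and NK cells of each library; points are summed UMIs per 1000000, bars are exact 95% Poisson intervals for counting error only, and triangles on the lower edge mark 0 UMIs. Gzma, Gzmb, Prf1, Klrd1 and Ccl5 stood higher in NK cells than in T cells in both libraries, and Trbc2 and Cd40lg higher in T cells.

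The lowest gate share of a member was 0.0537% of UMIs in the control and 0.0657% in the ischemic library, and the highest share of a barcode with 2 or more gate UMIs that missed the limit was 0.0271% and 0.0464%. Of the members, 7 and 8 had exactly 2 gate UMIs, and 25 and 20 other barcodes had 1 gate UMI with all other limits met. The C1q, S100a8 and S100a9, and Cd79a limits removed no barcode that met the rest. The line between T and NK cells was less firm. A single Cd3 or Trac UMI made 1 control and 5 ischemic members T cells, and 1 and 4 of these had 2 or more UMIs of Ncr1, Klrb1c and Klre1. Of all T cells, 11 and 17 had at least 1 UMI of those NK genes.

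T cells made up 0.477% (0.364 to 0.613%) of kept cells in the control and 0.595% (0.470 to 0.742%) in the ischemic library, and the intervals overlapped. NK cells made up 0.159% (0.0971 to 0.245%) and 0.0762% (0.0366 to 0.140%), again with overlapping intervals. Over the 327 and 504 cells of the T, NK, B, C1q-high (macrophage) and neutrophil gates together, T cells were 18.3% (14.3 to 23.0%) and 15.5% (12.4 to 18.9%), with overlapping intervals, and NK cells 6.12% (3.78 to 9.29%) and 1.98% (0.955 to 3.62%), with intervals that did not overlap. The intervals for NK cells did overlap with neutrophils left out of the denominator, at 6.47% (4.0 to 9.82%) and 2.95% (1.42 to 5.36%), and with the 1 and 4 members on the line between T and NK cells counted as NK cells, at 6.42% (4.02 to 9.65%) and 2.78% (1.53 to 4.62%). Neutrophils contributed 18 and 165 cells to that denominator, B cells 40 and 35 and C1q-high cells 189 and 216. The share of NK cells was lower in the ischemic library under each of these denominators, and the direction for T cells was set by the denominator, with 19.4% and 23.0% once neutrophils were left out.

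T cells were a mixture in which most cells showed no coreceptor. A CD8 UMI (Cd8a or Cd8b1) without Cd4 was seen in 15 of 60 (25%, 14.7 to 37.9%) control and 17 of 78 (21.8%, 13.2 to 32.6%) ischemic T cells, and a Cd4 UMI without CD8 in 12 of 60 (20%, 10.8 to 32.3%) and 16 of 78 (20.5%, 12.2 to 31.2%). Neither was seen in 32 of 60 (53.3%, 40.0 to 66.3%) and 44 of 78 (56.4%, 44.7 to 67.6%), and 1 cell of each library had both. The intervals of the libraries overlapped in every class. In thick ascending limb cells the share with a UMI of any coreceptor gene was 0.250% of 799 and 0 of 168, which allows up to 1.79%. Thinning every cell to 1000 UMIs left out no T cell. A coreceptor UMI then remained in 18.3% of the control and 19.2% of the ischemic T cells instead of 46.7% and 43.6%. The share with a coreceptor UMI thus depended on depth, and how many cells missed one at full depth was not tested. Foxp3, the factor of regulatory T cells, was found in 3 of 60 and 1 of 78 cells.

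The classes by coreceptor differed in their other genes as well. Ccl5, a chemokine of cytotoxic and memory cells, stood at 6457 and 8128 CPM in CD8-only cells of the control and ischemic libraries, at 881 and 1038 CPM in Cd4-only cells and at 1514 and 2489 CPM in cells with neither. Nkg7 followed the same order, with 1014 and 1129 CPM in CD8-only and 237 and 376 CPM in Cd4-only cells. Klrk1, the activating receptor NKG2D, stood at 327 and 323 CPM in CD8-only cells and at 0 and 30.1 CPM in Cd4-only cells. Cd40lg, the helper molecule that binds CD40, had the reverse order, at 49.0 and 24.8 CPM in CD8-only and 339 and 90.3 CPM in Cd4-only cells. The counting intervals of CD8-only and Cd4-only cells did not overlap for Ccl5, Nkg7 or Klrk1 in either library, nor for Cd40lg in the control, while those for Cd40lg overlapped in the ischemic library. Klrb1c, which is in the gate, had 17 and 32 UMIs in cells with neither coreceptor and at most 2 UMIs in each of the other classes. Of the T cells with a UMI of Ncr1, Klrb1c or Klre1, 9 of 11 in the control and 14 of 17 in the ischemic library had no coreceptor UMI and none had Cd4.

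Receptor chains were read from the constant genes. Trac, Trbc1 or Trbc2 was found in 58 of 60 control and 72 of 78 ischemic T cells. Trbc1 and Trbc2, which are alternative beta constant regions, were seen alone in 8 and 27 control and in 9 and 25 ischemic cells, and together in 19 and 34 cells; they are near-identical in sequence, so reads may be assigned to the wrong copy. A gamma or delta constant UMI (Trdc, Tcrg-C1, Tcrg-C2 or Tcrg-C4) was found in 7 of 60 (11.7%, 4.82 to 22.6%) and 11 of 78 (14.1%, 7.26 to 23.8%), in the ischemic library in 2 cells with no alpha or beta constant UMI and in the control library in none. Trdc, the delta constant gene, had 2 UMIs in 1 control cell and 19 UMIs in 6 ischemic cells, a ratio of 6.57 (1.58 to 58.1) that was at least 3.01 without the richest cell of each library, which held both control UMIs.

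NK cells carried more RNA of the killing genes Gzma, Gzmb and Prf1 than T cells did. The NK to T ratio of Gzma was 85.7 (52.8 to 149) in the control library and 16.4 (12.9 to 20.7) in the ischemic library, that of Gzmb (granzyme B) 25.4 (10.7 to 73.5) in the control library and 24.2 (12.5 to 50) in the ischemic library, and that of Prf1 (perforin) 49.6 (15.7 to 251) in the control library and 6.83 (3.17 to 14.4) in the ischemic library. With the 1 control and 4 ischemic members of a single Cd3 or Trac UMI and 2 or more NK gate UMIs counted as NK cells, the ischemic ratio was 53.8 (37.6 to 79.2) for Gzma and 23.9 (10.1 to 65.3) for Prf1. Not every granule gene stood higher in NK cells. Srgn had an NK to T ratio of 0.876 (0.585 to 1.28) in the control library and 0.555 (0.33 to 0.882) in the ischemic library. Fasl had one of 2.2 (1.16 to 4.04) in the control library and 0.882 (0.23 to 2.43) in the ischemic library. Ccl4, a chemokine that draws monocytes and T cells, had an NK to T ratio of 4.51 (3.44 to 5.92) in the control library and 5.22 (3.88 to 6.98) in the ischemic library. Eomes, the factor of mature NK cells, had one of 17.6 (3.65 to 168) in the control library and 18.5 (2.66 to 205) in the ischemic library. On the T cell side, Il7r, the interleukin-7 receptor, had an NK to T ratio of 0.151 (0.0178 to 0.572) in the control library and 0.356 (0.129 to 0.793) in the ischemic library, and Cxcr6, a receptor of tissue-resident lymphocytes, of 0.316 (0.0990 to 0.777) in the control library and 0.371 (0.0990 to 0.979) in the ischemic library. With the line moved as above the ischemic NK to T ratio was 1.07 (0.654 to 1.67) for Il7r, which spanned 1, and 0.325 (0.103 to 0.785) for Cxcr6. Cd2, an adhesion molecule of both lineages, had intervals that spanned 1 in both libraries. These are levels within a library, so they do not depend on the comparison of the kidneys, but both cell types were chosen by related genes and the NK cells are defined by lacking Cd3 and Trac.

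Between the kidneys, T cells showed more genes past 2-fold higher than lower in the ischemic library. Of 1625 genes with at least 50 UMIs over both libraries, 81 (4.98%) were past 2-fold higher and 39 (2.40%) past 2-fold lower in ischemia. The median ratio over these genes was 1.19 (0.25 on the log2 scale), and after dividing every ratio by it 39 genes were higher and 64 lower, so that the balance of directions turned with this scaling. Among the genes with at least 50 UMIs, 663 had at least 2 times the level of all other kept cells, as means over both libraries. Of these, 52 (7.84%) were past 2-fold higher and 1 (0.151%) lower. With at least 20 UMIs it was 9.90% and 1.54% of 1363 genes. Neither count was repeated after division by the median ratio. Without the control T cell richest in proximal tubule markers, 78 genes were higher and 31 lower. For naming, a gene counted as enriched at 2 times the level of the other cells in either library, so that it could pass through the library in which it was higher. The 10 highest enriched genes with at least 50 UMIs were Il17a, Ccl1, Batf, Gzma, Xcl1, Tnfrsf4, Bzw2, Traf3, Aebp2 and Psmb10.

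**Figure D2:**
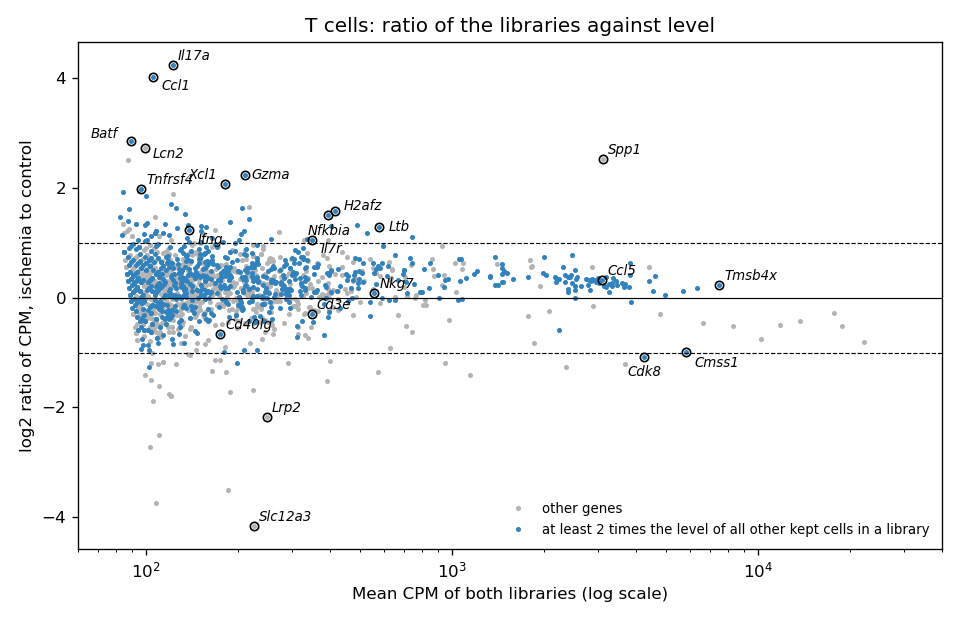
T cells: log2 ratio of ischemic to control CPM against the mean CPM of both libraries (log axis) for the genes with at least 50 UMIs, with genes at 2 or more times the level of all other kept cells in either library in blue and dashed lines at 2-fold. Il17a and Ccl1, at 0 UMIs in the control library, are drawn at a lower bound; Spp1 and Lcn2 above and Slc12a3 and Lrp2 below are tubule genes.

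Several of the highest ratios rested on 1 or 2 cells. Il17a, the cytokine that draws neutrophils through epithelial cells, had 0 UMIs in 60 control T cells, which allows up to 5% of cells with a UMI, and 81 UMIs in 2 of 78 ischemic T cells, with 43 and 38 UMIs. Its ratio was at least 18.7-fold, taken against 3 UMIs over the control T cells. Both cells carried 6 Trdc UMIs and no Trac UMI, but also 1 Trbc1 UMI each and 3 and 1 Trbc2 UMIs. The cell with 38 had 9 Tcrg-C1, 15 Cd163l1, 9 Il23r and 5 Il1r1 UMIs, genes known from gamma delta T cells that make interleukin-17, and the cell with 43 had none of these 4. Outside the gate Il17a was listed at 0.0161 and 0 CPM. Ccl1, a chemokine for CCR8-bearing cells, had all of its 70 UMIs in 1 ischemic cell with 16306 UMIs that also held 8 Cd8b1, 19 Xcl1, 27 Tnfrsf4, 13 Il1r2 and 28 Nfkbia UMIs. Batf, a factor of effector T cells, had 5 and 52 UMIs, 31 of them in 1 cell of 16681 UMIs that held both Cd4 and Cd8b1 UMIs; its ratio was 7.19 (2.89 to 23.1) and, without the richest cell of each library, 3.73. Tnfrsf4 (OX40), a costimulatory receptor, had 9 and 51 UMIs and a ratio of 3.92 (1.91 to 9.05), but 0.844 without the 10% of members with the most UMIs. Those 2 cells of 16306 and 16681 UMIs stood far above the median of 3638, and no doublet caller was run.

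**Figure D3:**
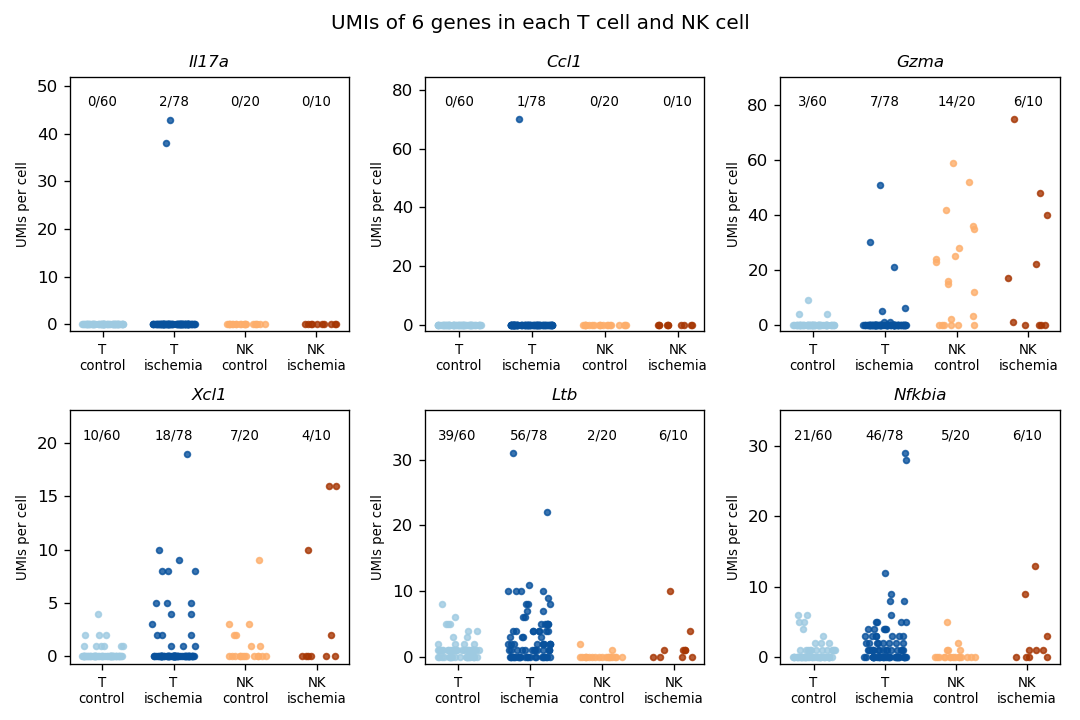
UMIs of Il17a, Ccl1, Gzma, Xcl1, Ltb and Nfkbia in each T cell and NK cell by library (linear axes, 1 point per cell, spread sideways at random), with the number of cells with a UMI over all cells printed above each group. Il17a and Ccl1 come from 2 cells and 1 cell, while Ltb was found in 39 of 60 and 56 of 78 T cells.

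Higher counts of Ltb and Nfkbia were spread over many cells. Ltb, lymphotoxin beta, a membrane cytokine of lymphocytes, stood at 337 CPM (266 to 421) in the control library and 817 CPM (722 to 920.5) in the ischemic library in T cells, a ratio of 2.42 (1.88 to 3.16). It was found in 39 of 60 and 56 of 78 T cells, against 0.501% and 1.19% of thick ascending limb cells. At 1000 UMIs per cell it was found in 30% (18.8 to 43.2%) and 43.6% (32.4 to 55.3%) of T cells, with overlapping intervals. Cells of the ischemic library reached 31 Ltb UMIs and those of the control 8, so the ranges overlapped with the higher values in ischemia. The 31 lay in the cell of 16681 UMIs and the next highest count, 22, in the cell with 43 Il17a UMIs. Nfkbia, the inhibitor of NF-kappaB that this factor itself induces, stood at 206 CPM (151 to 274) in the control library and 581 CPM (502 to 669) in the ischemic library, a ratio of 2.82 (2.04 to 3.97). It was found in 21 of 60 and 46 of 78 T cells, at most 6 and 29 UMIs per cell. The 29 lay in the cell with 38 Il17a UMIs, and the cell of 16306 UMIs held 28. Nfkbia was not particular to lymphocytes: it stood at 46.4 and 98.4 CPM in all cells outside the gate, and 19.6% and 45.8% of thick ascending limb cells had a UMI. At 1000 UMIs per cell the shares were 10% (3.76 to 20.5%) and 28.2% (18.6 to 39.5%) of T cells, with overlapping intervals. Those of thick ascending limb cells were 2.26% and 4.17%. In B cells Ltb stood at 274 and 334 CPM, in neutrophils at 83.5 and 174 CPM.

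Both genes stood higher in the ischemic T cells and both are textbook targets of NF-kappaB, so their promoters are shown. The windows run from 250 bases before to 50 bases after the annotated start (RefSeq, GRCm38.p6), on the strand of the gene: chr12:55492598-55492897, minus strand, for Nfkbia and chr17:35194257-35194556, plus strand, for Ltb. Both were picked after their values were seen. Capitals mark the matches to the letters GGGNNTTTCC on either strand, a common form of the NF-kappaB site, which begin 29 bases before the start of Nfkbia and 87 bases before that of Ltb.
Nfkbia: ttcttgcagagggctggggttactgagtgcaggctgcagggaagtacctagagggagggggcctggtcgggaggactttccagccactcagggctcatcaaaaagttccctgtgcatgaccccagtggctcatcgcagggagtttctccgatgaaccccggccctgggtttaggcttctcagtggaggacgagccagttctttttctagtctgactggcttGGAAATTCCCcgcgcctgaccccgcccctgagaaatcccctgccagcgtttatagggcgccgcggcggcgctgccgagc
Ltb: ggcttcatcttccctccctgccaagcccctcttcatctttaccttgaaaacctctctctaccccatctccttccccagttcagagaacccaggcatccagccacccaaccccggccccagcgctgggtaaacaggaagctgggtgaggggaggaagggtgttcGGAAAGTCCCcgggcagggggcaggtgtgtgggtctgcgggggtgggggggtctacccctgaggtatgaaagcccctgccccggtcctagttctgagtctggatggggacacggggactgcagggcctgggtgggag
Of the 32851 promoter windows of this length, 535 (1.63%) hold these letters. A match describes the sequence and is not a measured binding site.

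Lists of related genes were then read in T cells over their members with at least 20 UMIs in both libraries together; over all 4184 such genes 328 (7.84%) were past 2-fold higher, 202 (4.83%) lower, and the median ratio was 1.13. The receptor and surface list (17 of 17 members measured, 4 of them in the gate) had 0 higher and 1 lower, with a median of 1.08. Cd3e, the epsilon chain, had a ratio of 0.809 (0.603 to 1.09), Trbc2 of 1.42 (1.15 to 1.76) and Cd2 of 1.53 (1.09 to 2.16); the lower member was Cd27, a costimulatory receptor of resting cells, at 0.498 (0.256 to 0.950). None of the 8 measured coreceptor and lineage factor genes was past 2-fold (median 0.959): Cd4 had a ratio of 0.935 (0.478 to 1.87), Cd8b1 of 0.740 (0.507 to 1.08), and Tbx21, the T-bet factor of type 1 cells, of 1.42 (0.800 to 2.60). Apart from Cd27 no gene of these lists was past 2-fold. In the gamma delta list 3 of the 10 genes present in the files were measured, Trdc and Cd163l1 past 2-fold higher and Maf, a factor of several helper types, at 1.16 (0.823 to 1.66); Cd163l1 had 4 UMIs in 1 control and 25 in 3 ischemic cells (4.32, 1.49 to 17.1).

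Killing genes in T cells depended on the line between T and NK cells. Of 9 measured members of the granule list 3 were past 2-fold higher and 0 lower (median 1.27). Gzma stood at 74.4 CPM (43.3 to 119) in the control library and 348 CPM (287 to 418) in the ischemic library, a ratio of 4.68 (2.80 to 8.30), from 3 of 60 and 7 of 78 cells. Prf1 had 3 and 19 UMIs and a ratio of 4.38 (1.29 to 23.1), and Serpinb6b, an inhibitor that shields the killer from granzymes, of 2.0 (0.950 to 4.61). Of the 115 ischemic Gzma UMIs, 81 lay in the 5 T cells with a single Cd3 or Trac UMI, as did 12 of the 19 Prf1 UMIs and 24 of the 26 Tyrobp UMIs. In the 59 and 73 T cells with 2 or more Cd3 or Trac UMIs the ratio of Gzma was 1.43 (0.775 to 2.72) and that of Prf1 1.66 (0.380 to 9.97), both spanning 1. Xcl1, Ltb and Nfkbia kept ratios of 5.17, 2.71 and 2.91 there. Nkg7 stood at 543 CPM in control and 575 CPM in ischemic cells (1.06, 0.840 to 1.34) and Ctsw, a protease of killer cells, had a ratio of 1.16 (0.771 to 1.76), both spanning 1, while Srgn, the proteoglycan that packs granules, had a ratio of 1.44 (1.18 to 1.76). Of 8 measured NK receptor genes in T cells, 1 was past 2-fold higher: Klre1, in the gate, at 2.96 (1.28 to 7.99), with 20 of its 30 ischemic UMIs in the same 5 cells. Klrk1 had a ratio of 1.07 (0.721 to 1.60).

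Of 10 measured cytokines and chemokines, 4 were past 2-fold higher in ischemic T cells (Il17a, Xcl1, Ltb and Ifng) and 0 lower, with a median of 1.11 that was 2.33 over members with at least 50 UMIs and 1.68 without the richest cell of each gene. Xcl1, which attracts cross-presenting dendritic cells, stood at 70 CPM (40.0 to 114) in the control library and 294 CPM (238 to 358) in the ischemic library, a ratio of 4.19 (2.45 to 7.62). It was found in 10 of 60 and 18 of 78 T cells, with at most 4 UMIs per control and 19 per ischemic cell, and without the richest cell of each library the ratio was 4.65. Ifng, interferon-gamma, had 19 UMIs in 10 and 64 UMIs in 17 cells, a ratio of 2.33 (1.38 to 4.12); at 1000 UMIs per cell it was found in 8.33% and 15.4%. In ischemia the Ifng UMIs sat in Cd4-only cells (33.9 and 406 CPM) and in cells with no coreceptor (47.6 and 209.9 CPM) more than in CD8-only cells (147 and 24.8 CPM). Ccl5 was the most abundant chemokine of the list and stood at 2771 CPM in control and 3446 CPM in ischemic cells, a ratio of 1.24 (1.13 to 1.37). Ccl4 (0.876, 0.673 to 1.14), Ccl3 (0.837, 0.436 to 1.62), Tnf (0.728, 0.369 to 1.44) and Tgfb1 (0.982, 0.526 to 1.87) had intervals that spanned 1, and Cd40lg was lower, at 0.635 (0.414 to 0.972), without passing 2-fold. Il5, Il17f, Il21 and Il22 had no UMI in any T cell, where 3 UMIs equal 13.1 and 9.08 CPM.

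The cytokine receptors include Il1r1, which the study followed in myeloid cells. Of 15 measured members 4 were past 2-fold higher and 0 lower (median 1.31). Il7r, which sustains memory and innate-like T cells, stood at 228 CPM in control and 472 CPM in ischemic cells, a ratio of 2.07 (1.51 to 2.90), in 19 of 60 and 38 of 78 cells, and most of its ischemic level came from cells with no coreceptor (267 and 702 CPM). With the members on the line between T and NK cells counted as NK cells its T cell ratio was 1.97 (1.42 to 2.78), no longer past 2-fold. Il12rb2, the inducible chain of the interleukin-12 receptor, had 15 and 50 UMIs (ratio 2.30, 1.27 to 4.42), and Il21r, the interleukin-21 receptor, 21 and 61 (2.01, 1.21 to 3.47). Il1r1, the signalling receptor for interleukin-1, had 6 and 10 UMIs, each in 2 T cells (26.3 CPM in control and 30.3 CPM in ischemic cells; outside the gate 4.33 and 6.00 CPM). Of these 4 cells, which held 3 to 5 Il1r1 UMIs each, 3 also held Trdc, Tcrg-C1, Cd163l1 and Il23r UMIs and 1, from the control kidney, held Foxp3 and Ccr6 UMIs. The share of thick ascending limb cells with an Il1r1 UMI was 0.626% and 1.19%. Il1r2, the decoy receptor, had 0 UMIs in control T cells and 29 in the same 2 ischemic cells of 16306 and 16681 UMIs, at least 6.68-fold higher; it stood at 1.99 and 19.6 CPM outside the gate. Il18r1, for interleukin-18, was found in 17 of 60 and 24 of 78 T cells, with a ratio of 1.25 (0.769 to 2.09). No NK cell had an Il1r1 or Il1r2 UMI, which allows up to 15% of 20 control and 30% of 10 ischemic cells. Of the interleukin-1 family and its pathway (8 genes) none reached 20 UMIs in T cells; Il1a, Il1rn and Nlrp3 were at 0, and Il1b had 1 UMI in each library.

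Of 15 measured homing genes 1 was past 2-fold higher and 0 lower (median 1.21): Itgb7, the integrin chain of gut and mucosal homing, at 74.4 and 179 CPM and a ratio of 2.40 (1.38 to 4.39), in 15 of 60 and 38 of 78 cells, against 0.375% and 0.595% of thick ascending limb cells. Cxcr6 had a ratio of 1.12 (0.804 to 1.56), Cxcr3, the receptor for interferon-induced chemokines, of 0.636 (0.345 to 1.17), and Itga4, a chain of VLA-4, of 1.45 (1.06 to 1.99). Of 10 measured naive and memory genes 1 was past 2-fold higher, Il7r, which is on both lists and was not past 2-fold with that line moved. Ccr7, a receptor for lymph node entry, was found in 4 of 60 and 5 of 78 T cells. Klf2, which keeps cells circulating, had a ratio of 0.994 (0.753 to 1.32), and Bach2, a factor of resting cells, of 1.78 (1.16 to 2.80).

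Of 22 measured immediate early genes 3 were past 2-fold higher and 1 lower (median 1.16). The higher were Nfkbia, Dusp2, a phosphatase induced by receptor signalling (2.59, 1.64 to 4.25), and Ier5 (3.04, 1.51 to 6.78), and the lower was Egr1, an early factor of receptor signalling (0.323, 0.158 to 0.627). Fos (0.691, 0.506 to 0.945), Jun (0.672, 0.477 to 0.947) and Btg2 (0.621, 0.467 to 0.824) stood below 1 without passing 2-fold, and Junb had a ratio of 1.14 (0.956 to 1.37). Members of the list thus lay on both sides of 1. Of 8 measured checkpoint and costimulation genes 5 were past 2-fold higher and 0 lower (median 2.04): Tnfrsf4 (0.844 without the 10% of members with the most UMIs), Tnfrsf18 (GITR, 2.01, 1.24 to 3.39), Tnfrsf9 (4-1BB, 2.21, 0.774 to 7.72), Pdcd1 (PD-1, 2.94, 0.958 to 12.0) and Cd96 (2.07, 0.987 to 4.76), where the intervals of the last 3 spanned 1. Over the members of the list with at least 50 UMIs the median was 1.35. Ctla4, an inhibitory receptor, had a ratio of 0.641 (0.401 to 1.02), and Icos, a costimulatory one, of 1.11 (0.807 to 1.54).

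Cytoskeletal genes were all above 1 in T cells, as were 62.6% of all 4184 genes with at least 20 UMIs. None of 9 measured was past 2-fold (median 1.38), among them Actb, beta actin, at 3016 CPM in control and 4659.9 CPM in ischemic cells (1.55, 1.41 to 1.69) and Pfn1, profilin (1.63, 1.37 to 1.94). Outside the gate the ratio was 1.77 for Actb and 2.10 for Pfn1, and Tmsb4x, a thymosin, stood at 2.36 there and 1.18 in T cells. None of the 9 was past 2-fold higher in NK cells and 2 were lower, Cfl1 and Arpc3. Of 11 measured interferon and MHC class I genes 1 was past 2-fold higher, Ifi27l2a, a gene induced by type I interferon (2.44, 1.48 to 4.17), in 5 of 60 and 24 of 78 cells (thick ascending limb 1.25% and 1.19%), and 10 were over 1 (median 1.30); classic interferon genes were sparse, with Isg15 at 4 and 7 UMIs. Of 6 measured cell cycle genes 3 were past 2-fold higher and 1 lower (median 1.67). The higher were H2afz, a histone variant (2.97, 2.16 to 4.15), Ran, for nuclear transport (3.14, 2.0 to 5.11), and Pcna, the replication clamp (2.07, 0.849 to 5.78), whose interval spanned 1. Of the 206 ischemic H2afz UMIs 74, and of the 109 Ran UMIs 33, lay in 1 cell, and without the richest cell of each library their ratios were 2.15 and 2.45; the lower was Top2a (0.346, 0.128 to 0.856), of whose 16 control UMIs 13 lay in 1 cell. That cell also held all 16 control UMIs of Mki67, the proliferation marker, which had 3 UMIs in 3 ischemic cells, and Cdk1 and Birc5 were at 0. The ischemic cell of 16681 UMIs that held 74 H2afz UMIs also held 5 of the 8 ischemic Top2a UMIs, and the replication genes Tyms and Mcm3, under the minimum, had 1 and 16 and 1 and 13 UMIs. No heat shock gene (10 measured, median 1.11), glycolysis gene (11, median 1.34) or glucocorticoid-responsive gene (6, median 0.878) was past 2-fold. On the higher side the nearest were Hsp90ab1, a chaperone (1.92, 1.59 to 2.34), and Ldha, lactate dehydrogenase (1.73, 1.19 to 2.56). On the lower side Fkbp5 stood at 74.4 CPM in control and 39.3 CPM in ischemic cells, and Hspa1b at 65.7 and 36.3 CPM.

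The other 4 of the 10 highest enriched genes in T cells came from many cells. Traf3, an adaptor of tumour necrosis factor receptors, had 10 and 52 UMIs in 7 and 31 cells (ratio 3.59, 1.81 to 7.93); at 1000 UMIs per cell it was found in 3.33% and 11.5% of T cells and in 2.26% and 2.98% of thick ascending limb cells. Psmb10, a subunit of the immunoproteasome, had 14 and 63 UMIs in 12 and 36 cells (3.11, 1.72 to 6.01), at 1000 UMIs per cell in 5% and 16.7% of T cells and in 2.01% and 1.79% of thick ascending limb cells. Bzw2, a translation regulator, and Aebp2, a Polycomb cofactor, had ratios of 3.80 (1.77 to 9.35) and 3.24 (1.76 to 6.44), with UMIs in 6 and 25 and in 12 and 31 cells; at 1000 UMIs per cell Bzw2 was found in 0% and 10.3% of T cells and 5.53% and 7.74% of thick ascending limb cells, and Aebp2 in 3.33% and 14.1% and in 2.64% and 3.57%. At the lower end of the enriched genes stood Arhgap18, Tpr, Cdk8, Gm10076, Cmss1, Tor1aip1, Gm15564, Hist1h1e, Mapre2 and Eif3d, of which 7 were below 2 times the level of the other cells with the UMIs of both libraries pooled and passed through 1 library. Of these 10, Arhgap18, Tpr and Cdk8 were past 2-fold, and Arhgap18 (0.419, 0.228 to 0.752) had 16 of its 33 control UMIs in 1 cell. Cmss1 (7769 CPM in control and 3922 CPM in ischemic cells, ratio 0.505, 0.470 to 0.543) and Cdk8 (5769 CPM in control and 2717 CPM in ischemic cells, ratio 0.471, 0.432 to 0.513) were found in every T cell of both libraries and were also lower in ischemia in all cells outside the gate, at 4435 and 1867 CPM and 2742 and 1012 CPM. Tpr, of the nuclear pore basket, had a ratio of 0.439 (0.288 to 0.663). Among all genes the lowest were Slc12a3, Mecom, Slc8a1, Pkhd1 and Calb1, all tubule genes. Of the 98 control Slc12a3 UMIs, the salt transporter of the distal convoluted tubule, 80 lay in 1 T cell of 17069 UMIs, the deepest member, which also held 4 Cd3e and 4 Trac UMIs; without the richest cell of each library its ratio was 0.216 instead of 0.0564.

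**Figure D4:**
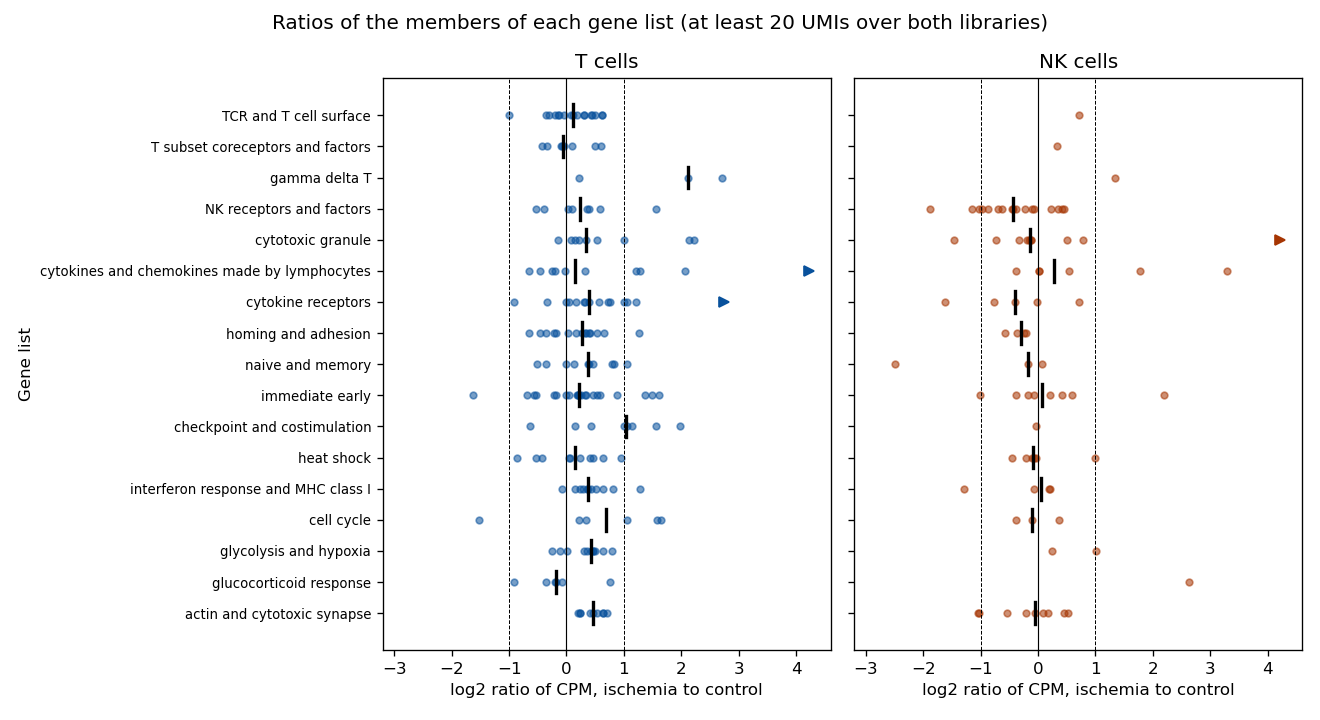
Log2 ratio of ischemic to control CPM of the members of 17 gene lists with at least 20 UMIs, in T cells (left) and NK cells (right); points are genes, black bars medians of lists with 3 or more points, triangles lower bounds for genes at 0 UMIs in the control library, and dashed lines 2-fold. In T cells all 9 cytoskeletal genes lie right of 0, as do 62.6% of all genes, and the checkpoint list has 5 of 8 genes past 2-fold, with a median of 1.35 over those with at least 50 UMIs and Tnfrsf4 at 0.844 without the 10% of members with the most UMIs.

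In NK cells 203 genes had at least 50 UMIs; 8 (3.94%) were past 2-fold higher and 9 (4.43%) past 2-fold lower in ischemia, with a median ratio of 1.14, and 7 and 12 after division by it. With the members on the line between T and NK cells counted as NK cells, 9 of 246 genes were higher and 6 lower, so that the balance of directions turned with this line. Of the 71 genes with at least 2 times the level of the other cells, as means over both libraries, 2 (2.82%) were higher and 6 (8.45%) lower. Over the 654 genes with at least 20 UMIs, 38 (5.81%) were higher and 59 (9.02%) lower, with a median of 1.01, and of the 304 such genes 3.29% and 11.2%. The 2 higher enriched genes were Xcl1 and Tmsb10. Xcl1 stood at 359.8 CPM (223 to 550.0) in the control library and 1233 CPM (896 to 1656) in the ischemic library, a ratio of 3.43 (2.0 to 6.07), from 7 of 20 and 4 of 10 cells with at most 9 and 16 UMIs. The share of NK cells with a UMI was 35% and 40%, and the highest counts were in the ischemic library. Tmsb10, an actin-binding thymosin, stood at 891 CPM in control and 1822 CPM in ischemic cells (2.05, 1.40 to 3.0), and had 21 of its 65 ischemic UMIs in 1 cell.

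Gzma, Gzmb, Prf1, Nkg7 and Ccl5 were not past 2-fold between the kidneys in NK cells. Gzma stood at 6373 CPM (5742 to 7055) in the control library and 5691 CPM (4935 to 6529.6) in the ischemic library, in 14 of 20 and 6 of 10 cells, a ratio of 0.893 (0.749 to 1.06). Its UMIs per cell ranged from 0 to 59 with a median of 15.5 in the control and from 0 to 75 with a median of 9 in the ischemic library. Gzmb had a ratio of 1.43 (0.873 to 2.32), Prf1 of 0.603 (0.302 to 1.14), Nkg7 of 0.792 (0.545 to 1.14) and Ccl5 of 1.01 (0.873 to 1.17), all with intervals that spanned 1. Of 10 measured granule genes 1 was past 2-fold higher and 1 lower (median 0.904): Gzmc, granzyme C, had all 34 of its UMIs in 1 ischemic cell (at least 18.5-fold higher), and Fasl, the death ligand, had 18 and 4 UMIs (0.364, 0.0895 to 1.10). That Gzmc cell also held 16 Xcl1, 10 Ltb and 9 Nfkbia UMIs and no Gzma UMI. Of 6 measured cytokines and chemokines 2 were higher, Xcl1 and Ltb (3 and 18 UMIs, ratio 9.82, 2.87 to 52.0), and Ccl3, Ccl4 and Ifng had ratios of 1.46 (0.817 to 2.60), 1.01 (0.750 to 1.36) and 0.770 (0.288 to 1.88). Nfkbia had 10 UMIs in 5 of 20 and 28 in 6 of 10 NK cells (4.58, 2.16 to 10.6). Xcl1, Ltb and Nfkbia were thus past 2-fold higher in the ischemic library in NK cells as in T cells. The same control and ischemic libraries give both values. In NK cells most of these ischemic UMIs lay in the cells of 3264, 3990 and 3868 UMIs. These held 16, 16 and 10 Xcl1, 4, 10 and 0 Ltb, and 3, 9 and 13 Nfkbia UMIs. No other ischemic NK cell held more than 2 Xcl1, 1 Ltb or 1 Nfkbia UMIs.

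Among NK receptors, those past 2-fold were all lower in ischemia. Of 17 measured members of the list, among them the gate genes Ncr1, Klrb1c and Klre1, 0 were past 2-fold higher and 3 lower. Over all 654 genes with at least 20 UMIs, 5.81% were higher and 9.02% lower. Of the 304 such genes at 2 or more times the level of the other cells, it was 3.29% and 11.2%. Whether the list differed from these shares was not tested. The median was 0.741, the ratio of the gate gene Klrb1c, and none of the 3 lower genes is in the gate. The lower were Klra4 (Ly49D, activating), with 48 UMIs in 7 of 20 and 8 in 2 of 10 cells (0.273, 0.111 to 0.582), Klra8 (Ly49H, activating), with 30 in 8 and 9 in 2 cells (0.491, 0.205 to 1.06), and Klrc2 (NKG2C, 0.451, 0.178 to 1.01); the interval excluded 1 for Klra4 and not for the other 2. With the members on the line between T and NK cells counted as NK cells (21 and 14 cells), the ratios were 0.524 (0.295 to 0.9) for Klra4, 0.503 (0.235 to 1.01) for Klra8 and 0.477 (0.215 to 0.984) for Klrc2, so that Klra4 and Klra8 no longer passed 2-fold; ischemic T cells held 12 Klra4 UMIs and control T cells 0. Klf2, Xcl1, Ltb and Nfkbia then had NK ratios of 0.328 (0.158 to 0.629), 2.72 (1.66 to 4.56), 2.52 (1.07 to 6.36) and 3.52 (1.66 to 8.13). Klra7, under the minimum, had 18 UMIs in the control and 0 in the ischemic library. Klra9 (1.27, 0.586 to 2.71) and Klra3 (0.935, 0.340 to 2.39) had intervals that spanned 1. Ly49 genes are expressed in a patchy way from cell to cell and are close in sequence, and the ischemic UMIs of Klra4 and of Klra8 came from 2 cells each. Ncr1, in the gate, had a ratio of 1.17 (0.706 to 1.91), and Klrk1 of 0.621 (0.362 to 1.03). Klrd1, the partner chain of NKG2A, stood at 617 CPM in control and 336 CPM in ischemic cells (0.545, 0.258 to 1.07).

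Among genes with at least 50 UMIs the lowest ratio in NK cells was that of Klf2, at 788 CPM (577 to 1051) in the control library and 140.2 CPM (45.5 to 327) in the ischemic library (0.178, 0.0551 to 0.446). It was found in 12 of 20 control and 2 of 10 ischemic NK cells, against 6.76% and 14.3% of thick ascending limb cells, and at 1000 UMIs per cell in 7 of 20 and 0 of 10, which allows up to 30%. In T cells Klf2 stood at 389.6 and 387 CPM. Hist1h1e, a linker histone, stood at 839.5 CPM in control and 168 CPM in ischemic cells (0.200, 0.0701 to 0.468), Rgs1, a brake on chemokine receptors, at 805 CPM in control and 224 CPM in ischemic cells (0.278, 0.114 to 0.595), and Gm2682, at 1234 CPM in control and 533 CPM in ischemic cells (0.432, 0.246 to 0.724). Cmss1 was lower as in T cells (0.473, 0.393 to 0.567), and Cfl1, the actin-severing cofilin, had a ratio of 0.491 (0.234 to 0.954). With the members on the line between T and NK cells counted as NK cells, Gm2682, Cfl1 and Tmsb10 had ratios of 0.751, 0.599 and 1.63 and were no longer past 2-fold. Il18rap, the accessory chain of the interleukin-18 receptor, was the 1 lower gene of 5 measured cytokine receptors, with 30 and 6 UMIs (0.327, 0.111 to 0.799). Stat4, which transmits interleukin-12 signals (1.59, 0.985 to 2.57), AW112010, an interferon-induced transcript (1.61, 1.23 to 2.10), and Junb (1.52, 0.949 to 2.42) stood above 1 without passing 2-fold. The 4 highest genes outside the enriched set were Spp1, Fth1 (2.71, 2.25 to 3.27), Dbi (2.66, 1.72 to 4.18) and Gpx1 (2.55, 1.51 to 4.40), where 25 of the 39 ischemic Gpx1 UMIs and 136 of the 303 Fth1 UMIs lay in 1 cell; all 4 stood higher in the cells outside the gate than in NK cells. The part of free tubule RNA in them was not tested.

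The other lists had few measured genes in NK cells. Of 4 homing genes and 6 heat shock genes none was past 2-fold (medians 0.814 and 0.945), nor was any of 3 cell cycle genes (0.935). Of 9 cytoskeletal genes 2 were lower, Cfl1 and Arpc3 (0.485, 0.190 to 1.10), with a median of 0.960. Of 8 immediate early genes Nfkbia was higher and Tnfaip3, an NF-kappaB inhibitor enzyme, lower (0.498, 0.180 to 1.20). Of 4 interferon and MHC class I genes Ly6c2 was lower (0.409, 0.137 to 1.03), and of 3 naive and memory genes Klf2. Of 2 glycolysis genes Gapdh was higher (2.03, 1.10 to 3.79). Mt1, a metallothionein induced by glucocorticoids and metals and the 1 measured gene of its list, had 9 and 34 UMIs (6.18, 2.90 to 14.7) and a ratio of 1.69 (1.15 to 2.54) in T cells; it stood at 735 and 2072 CPM outside the gate and 2545 and 9579 CPM in thick ascending limb cells, above the NK level, and the part of tubule RNA in its ratio was not tested. The T cell lists and the checkpoint list had 1 measured gene each: Cd2 (1.64, 0.699 to 3.83), Tbx21 (1.26, 0.494 to 3.11) and Tox (0.982, 0.379 to 2.39) were not past 2-fold, and Maf, a factor listed with gamma delta T cells, was higher (2.55, 1.03 to 6.67). Medians were 1.24 for cytokines and chemokines, 0.755 for cytokine receptors and 1.05 for immediate early genes, and no interleukin-1 family gene reached 20 UMIs.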

How the data were processed

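Single-cell RNA was measured in 1 control and 1 ischemic mouse kidney library. Per the labels, the authors made raw counts of UMIs per gene and barcode with Cell Ranger 7.0.0 on mm10 (GRCm38), and deposited them as filtered matrices of 32285 genes and 15110 and 15257 barcodes, with 142686238 and 142959737 UMIs. The deposited counts were used without normalization or integration. A barcode was kept if it had 200 or more genes, between 500 and 150000 UMIs and no more than 55% of UMIs from the 13 mitochondrial genes, the limits given in the study's methods, and the T and NK gate of the report was applied. No doublet caller was run, and the gate's limits on macrophage, neutrophil and B cell genes removed no barcode that met its other limits.

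UMIs were summed over the cells of a type in each library and divided by their total (CPM). Intervals are exact (Poisson for CPM, conditional binomial for ratios, Clopper-Pearson for shares). Coverage was tested only for the ratio intervals, on simulated Poisson sums. That simulation had no differences between cells, so it cannot tell how the intervals cover counts that lie in few cells. With 1 library per condition no test was made; cells were not used as replicates. Where 1 library had 0 UMIs, a ratio was taken against 3 UMIs. Genes needed at least 50 UMIs over both libraries to be counted past 2-fold, and list members at least 20. Enriched genes had at least 2 times the CPM of all other kept cells in either library.

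The members, the 32 gene lists (337 genes, 334 in the files) and the rule for named genes were chosen with earlier results of these data known. Beside list members, the rule named the 10 highest and 10 lowest enriched genes by ratio, the 5 highest and 5 lowest of all genes, and the 20 most enriched. Genes read together in single cells were chosen after their values were seen. A few genes that the lists or rules name are not reported here. The alternatives were other limits on cells, gate, gene minimum and total, cells thinned to 1000 UMIs, and leaving out the deepest cells, the cells richest in tubule RNA or the richest cell of a gene, and, chosen after seeing the data, moving the line between T and NK cells and enrichment over both libraries. The depth of T cells (228467 and 330483 UMIs) puts 3 UMIs at 13.1 and 9.08 CPM. NK cells (58367 and 35673 UMIs) reach 51.4 and 84.1 CPM. Scripts ran in Python 3.11.15 (pandas 2.3.3, scipy 1.17.1, numpy 2.4.6), and plots were drawn with matplotlib 3.10.9.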

Additional observations from a re-analysis of the deposited data

Results flagged for a closer look

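Of the 192 genes with at least 50 UMIs in T cells and in NK cells, 6 had a ratio of ischemic to control CPM past 2-fold in 1 of the cell types and on the other side of 1 in the other, and 5 of them are given here; with 1 library per condition the difference between the cell types was not tested. Gzma had a ratio of 4.68 in T cells and 0.893 in NK cells, and 1.43 in T cells with at least 2 Cd3 or Trac UMIs. Il12rb2 had a ratio of 2.30 in T cells and 0.587 in NK cells. Cfl1, the actin-severing cofilin, had a ratio of 1.18 in T cells and 0.491 in NK cells. Gm2682 had a ratio of 2.14 in T cells and 0.432 in NK cells, and Cfl1 and Gm2682 had 0.599 and 0.751 in NK cells once members with 1 Cd3 or Trac UMI and 2 or more NK gate UMIs were counted as NK cells. Lgals1, galectin-1, lies outside the rule for named genes and was chosen after its values were seen; it had a ratio of 2.50 in T cells and 0.920 in NK cells.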

How the results depend on the processing

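No paired analysis was possible because each condition had 1 library, and leaving out a library leaves no comparison. Every value therefore also carries any difference between these kidneys, digests and libraries, which cannot be told apart from ischemia. Of 816 gene ratios under alternatives, 761 moved by less than their interval, 54 moved further and 1 was counted as turning its direction. That was Tnfrsf4 in T cells, at 0.844 without the 10% of members with the most UMIs. With the line between T and NK cells moved, other ratios also crossed 1, with intervals that spanned 1. In T cells Nkg7 then had a ratio of 0.985 instead of 1.06. Gzmb in T cells, at 26.3 CPM in control and 39.3 CPM in ischemic cells before, then had 0.946. Ccl4 in NK cells, at 2073 CPM in control and 2102 CPM in ischemic cells before, then had 0.925. The T cell share was 0.624% in the control with a limit of 25% mitochondrial UMIs, and 0.664% and 0.989% in the control and ischemic libraries with at least 1000 UMIs per cell. Over the cells of the leukocyte gates, chosen after seeing the data, T cells were 18.3% and 15.5% and NK cells 6.12% and 1.98%; without neutrophils 19.4% and 23.0%, and 6.47% and 2.95%; with the line between T and NK cells moved 18.0% and 14.7%, and 6.42% and 2.78%. Of kept cells, NK cells were 0.167% and 0.107% with that line moved, inside the intervals of the values reported. Genes past 2-fold in T cells numbered 328 higher and 202 lower at a minimum of 20 UMIs, 1416 and 1580 at 3 UMIs, and 39 and 64 after division by the median ratio. The lower genes in T cells numbered 16 without the 10% of members with the most UMIs, 3 among genes enriched in either library, 1 among genes enriched over both libraries (52 higher) and 23 without the richest cell of each gene (chosen after seeing the data), against 39 in all. In NK cells 38 were higher and 59 lower at 20 UMIs and 980 and 667 at 3 UMIs, where most ratios rest on a few molecules. The higher genes in NK cells numbered 5 without the 10% of members with the most UMIs, 2 among genes enriched in either library or over both and 3 without the richest cell, against 8 in all. The balance of 8 higher and 9 lower turned to 9 and 6 with the line moved, 9 and 7 at 3 gate UMIs or a gate share of 0.1%, and 10 and 8 without mitochondrial UMIs. Of the list medians in T cells, cytokines and chemokines moved from 1.11 to 2.33 at a minimum of 50 UMIs and to 1.68 without the richest cell, and checkpoint and costimulation from 2.04 to 1.35 at 50 UMIs.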
